A study of Homo sapiens with 8 samples.

Results

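YAP-TEAD target genes are genes whose promoters or enhancers are bound by the transcription factors TEAD1 to TEAD4 together with their coactivators YAP and TAZ. Of the 60725 genes in the deposited table, 10 such genes, called members here, were followed across NELF depletion: ANKRD1, CCN1, CCN2, AMOTL1, AMOTL2, LATS2, AJUBA, CRIM1, F3 and AXL. They are known targets from the literature, and they were chosen with their values in these libraries already known, so their differences between knockdown and control cells are described below without a test. All 10 were found in the table by their Ensembl identifiers, and all 10 had enough reads to pass the filter on low counts.

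The cells were HAP1, a near-haploid human line derived from a chronic myeloid leukaemia, in a single clone that expresses dCas9-KRAB, a Cas9 that does not cut DNA joined to a transcriptional repressor (CRISPRi). A lentiviral guide RNA against NELFE, against NELFB or, in the control cells, against ADAM22 was transduced, cells were selected with puromycin, and polyadenylated RNA was collected 144 h after transduction. NELFE and NELFB are subunits of the negative elongation factor, which holds RNA polymerase II in a paused state shortly after it has started transcription. There were 3 control, 3 NELFE knockdown and 2 NELFB knockdown libraries, described by the study as biological replicates, with 22037423 to 24444185 counted reads each. Each knockdown rests on 1 guide RNA, and all groups share the clone and the repressor.

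In the Hippo pathway, the kinases MST1 and MST2 activate LATS1 and LATS2, which phosphorylate YAP and TAZ and keep them in the cytoplasm. When the kinases are inactive, as in spread cells under tension, YAP and TAZ enter the nucleus and bind TEAD. Several targets, among them LATS2 and the angiomotin-like proteins, feed back to restrain the pathway, and secreted targets such as CCN1 and CCN2 act on the matrix and on neighbouring cells.

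The sequences in front of the start sites are shown first for the 3 members whose promoters hold more than 1 match to a motif of TEAD or of AP-1, a factor that often binds beside TEAD. Capitals mark GGAATG or its reverse complement CATTCC (TEAD), TGANTCA (AP-1, its own reverse complement with any base at N) and, in CCN2, a TATAAA box. All are from RefSeq promoters on GRCh38.p14, read 5′ to 3′ on the strand of the gene, which is the minus strand for all 3. ANKRD1 is shown at chr10:90921197-90921317, CCN2 at chr6:131951392-131951552 and F3 at chr1:94541954-94541989.
ANKRD1: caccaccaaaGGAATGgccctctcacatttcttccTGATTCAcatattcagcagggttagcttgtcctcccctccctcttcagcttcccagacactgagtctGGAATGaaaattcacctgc
CCN2: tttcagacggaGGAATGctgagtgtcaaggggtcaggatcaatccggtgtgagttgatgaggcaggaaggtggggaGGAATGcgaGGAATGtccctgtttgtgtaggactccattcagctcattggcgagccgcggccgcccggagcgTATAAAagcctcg
F3: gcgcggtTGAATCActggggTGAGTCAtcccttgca

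RefSeq promoters of 300 bases, from 250 before to 50 after the start site, were at hand for 8 of the 10 members (11 promoters, since AMOTL2, AJUBA and AXL have more than 1), and CCN1 and CRIM1 had no entry. CCN2 held 3 TEAD motifs, counted on both strands, 169, 104 and 95 bases before the start, and 0.128% of all 35116 promoters held at least 3. ANKRD1 held 2 TEAD motifs, 220 and 128 bases before the start, with an AP-1 motif between them, and 1.37% of promoters held at least 2 TEAD motifs. F3 held no TEAD motif but 2 AP-1 motifs, 223 and 210 bases before the start, and 0.515% of promoters held at least 2 AP-1 motifs, whatever their TEAD motifs. The second promoters of AMOTL2, AJUBA and AXL and the promoter of LATS2 held 1 TEAD motif each. In all, 6 of the 11 member promoters held a TEAD motif, against 14.0% of all promoters. A match describes the letters in this window only, and binding of TEAD was not measured.

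The guide RNAs reduced their targets. NELFE was at 50.6, 49.5 and 47.8 CPM (reads scaled to library size, with TMM normalisation) in control replicates 1 to 3, at 2.41, 2.38 and 2.98 CPM in the NELFE knockdown and at 61.4 and 56.6 CPM in the NELFB knockdown. NELFB was at 74.6, 72.8 and 78.7 CPM in control cells, 63.5, 64.2 and 64.0 CPM in the NELFE knockdown and 3.08 and 2.76 CPM in the NELFB knockdown. Each target thus lay far below control in its own knockdown, with log2 fold changes of -4.26 for NELFE and -4.69 for NELFB (adjusted p = 2.15e-08 and 4.02e-09, edgeR). NELFB mRNA was also slightly lower in the NELFE knockdown, by 0.24 on the log2 scale (adjusted p = 0.0481, edgeR, passed under 6 of 15 settings). The study reports that depleting NELFE also led to loss of NELFB protein, so the knockdowns need not remove separate subunits. ADAM22, the target of the control guide RNA, was at 11.2 to 13.7 CPM in control cells and 29.9 to 47.6 CPM in the 5 knockdown libraries (log2 fold change 1.62, adjusted p = 7.43e-05, edgeR), so it has no untargeted reference here.

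The libraries within a group were not alike in the members. When the log2 CPM of every member was standardised over the 8 libraries and averaged over the 10 members, control replicates 1, 2 and 3 stood at -1.06, -0.74 and -0.35. NELFE replicates 1 and 2 stood at -0.06 and -0.52, and NELFE replicate 3 stood at 1.02, beside NELFB replicates 1 and 2 at 1.09 and 0.62. NELFE replicate 3 was thus close to the NELFB libraries, NELFE replicate 1 lay just above the control libraries and NELFE replicate 2 within their range. NELFE replicate 3 was the highest NELFE library for 10 of 10 members, NELFB replicate 1 was above NELFB replicate 2 for 10 of 10, and control replicate 3 was the highest control library for 8 of 10. Over all 16367 genes tested in the combined comparison, these shares were 40.8%, 52.6% and 34.4%. The members vary together, so their counts are not independent of each other. What sets NELFE replicate 3 apart was not tested, and results are given with and without it where it matters.

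**Figure D1:**
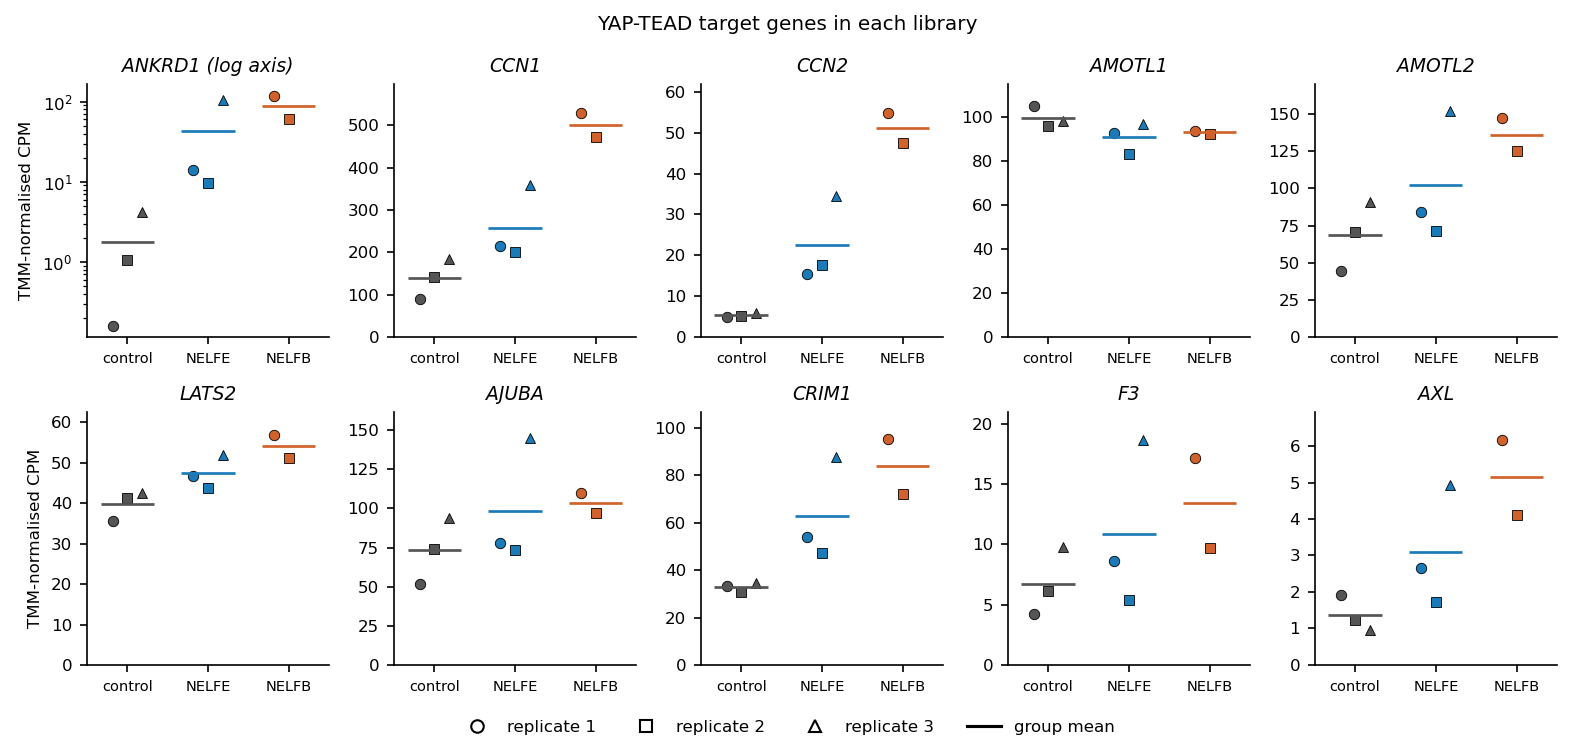
TMM-normalised CPM of the 10 members in each library (symbols mark the replicate number, bars the group mean, and the ANKRD1 axis is logarithmic). For 5 members, ANKRD1, CCN1, CCN2, LATS2 and CRIM1, all 5 knockdown libraries lie above all 3 control libraries, and the triangle of NELFE replicate 3 is the highest NELFE value in every panel.

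For ANKRD1 and for CCN1, CCN2 and CRIM1, which are secreted or bind growth factors, no knockdown library overlapped the control libraries. ANKRD1, an ankyrin repeat protein of the sarcomere and nucleus that is widely used as a readout of YAP, had 4, 24 and 95 reads in control replicates 1 to 3, corresponding to 0.161, 1.07 and 4.14 CPM. It was at 13.9, 9.55 and 104 CPM in NELFE replicates 1 to 3 and at 118 and 59.9 CPM in NELFB replicates 1 and 2. Every knockdown library was above every control library, but the control libraries spanned a 25.8-fold range and the NELFE libraries a 10.9-fold range. The log2 fold change was 4.58 (standard error 1.36) in the NELFE knockdown and 5.65 (standard error 1.42) in the NELFB knockdown. Without NELFE replicate 3, the first value was 2.73. Without control replicate 3, the values were 6.1 and 7.2, and the NELFB value was 5.1 without NELFB replicate 1.

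CCN2, also known as CTGF, is a matricellular protein that binds integrins and promotes fibrosis. It was at 4.86, 5.15 and 5.93 CPM in control cells, 15.5, 17.6 and 34.4 CPM in the NELFE knockdown, and 54.7 and 47.4 CPM in the NELFB knockdown. The 3 groups did not overlap, and control cells varied by no more than 1.22-fold. On the mean CPM, this was 4.24-fold in the NELFE and 9.62-fold in the NELFB knockdown, and the fitted log2 fold changes were 2.08 (standard error 0.28) and 3.27 (standard error 0.29). Its promoter, which holds the 3 TEAD motifs printed above, lies at the start of a gene on chromosome 6 from 131948176 to 131951372.

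CCN1, or CYR61, is the closest relative of CCN2 among the members and was the most abundant of them in control cells, at 153 ± 50.02 TPM (SD, n = 3, a unit that scales reads by gene length and library size), against 9.29 ± 0.861 TPM (SD, n = 3) for CCN2. Its level was 90.2, 142 and 184 CPM in control cells, 215, 200 and 358 CPM in the NELFE knockdown and 530 and 472 CPM in the NELFB knockdown. The lowest NELFE library was only just above the highest control library, and both NELFB libraries were above all others. The log2 fold change was 0.89 (standard error 0.26) in the NELFE knockdown and 1.85 (standard error 0.29) in the NELFB knockdown. Without NELFE replicate 3, the first value was 0.58.

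CRIM1 is a membrane protein with cysteine-rich repeats that binds bone morphogenetic proteins. It was at 33.4, 30.6 and 34.4 CPM in control cells, 53.8, 47.4 and 87.6 CPM in the NELFE knockdown and 95.5 and 72.2 CPM in the NELFB knockdown. All knockdown libraries were above all control libraries, which lay close together. The log2 fold changes were 0.94 (standard error 0.20) and 1.36 (standard error 0.22) in the NELFE and NELFB knockdowns, and the first was 0.62 without NELFE replicate 3.

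The members that act on the Hippo pathway itself, LATS2, AMOTL2, AJUBA and AMOTL1, had log2 fold changes of at most 0.99, and only LATS2 had all knockdown libraries above all control libraries. LATS2, the kinase that phosphorylates YAP and TAZ, was at 35.7, 41.3 and 42.7 CPM in control cells, 46.7, 43.8 and 52.0 CPM in the NELFE knockdown and 56.8 and 51.3 CPM in the NELFB knockdown. Here too, no knockdown library fell to the control level, although NELFE replicate 2 came near it. The log2 fold changes were 0.25 (standard error 0.10) and 0.44 (standard error 0.11).

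AMOTL2, an angiomotin-like protein that binds YAP and holds it at cell junctions, was at 44.2, 70.8 and 91.2 CPM in control cells, 83.9, 71.2 and 152 CPM in the NELFE knockdown and 147 and 125 CPM in the NELFB knockdown. NELFE replicates 1 and 2 lay within the control range, and the other 3 knockdown libraries lay above it. The log2 fold changes were 0.57 (standard error 0.30) and 0.99 (standard error 0.32), and the first was 0.17 without NELFE replicate 3 and 0.33 without control replicate 1. AJUBA, a LIM-domain protein that binds and inhibits the LATS kinases, had a similar pattern, with 51.6, 74.0 and 94.0 CPM in control cells, 77.6, 73.4 and 145 CPM in the NELFE knockdown and 110 and 97.1 CPM in the NELFB knockdown. The NELFE value went from 0.43 (standard error 0.26) on the log2 scale with all libraries to 0.04 without NELFE replicate 3, 0.22 without control replicate 1 and 0.65 without control replicate 3. The NELFB value was 0.50, and over 15 settings it ranged from 0.30, without control replicate 1, to 0.80.

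AMOTL1, the other angiomotin-like member, differed from the rest. It was at 105, 95.8 and 98.2 CPM in control cells, 92.8, 83.3 and 96.8 CPM in the NELFE knockdown and 93.6 and 92.4 CPM in the NELFB knockdown. The groups overlapped, and the log2 fold changes were -0.14 (standard error 0.08) and -0.10 (standard error 0.09), the first -0.075 without NELFE replicate 2 and the second -0.062 without control replicate 1. In TPM, the paralogs AMOTL1 and AMOTL2 had nearly the same level in control cells, at 40.7 ± 2.34 and 43.3 ± 14.4 TPM (SD, n = 3), a difference well within the spread of AMOTL2.

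Of the cell surface receptors among the members, F3 (tissue factor, which binds factor VII and starts coagulation) was at 4.25, 6.13 and 9.80 CPM in control cells, 8.61, 5.40 and 18.7 CPM in the NELFE knockdown and 17.2 and 9.69 CPM in the NELFB knockdown. The groups overlapped, since control replicate 3 was above NELFB replicate 2. The log2 fold changes were 0.69 (standard error 0.44) and 1.00 (standard error 0.48), and single libraries moved both. The NELFE value was 0.06 without NELFE replicate 3, 0.44 without control replicate 1 and 1.07 without control replicate 3, and the NELFB value was 0.52 without NELFB replicate 1.

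AXL, a receptor tyrosine kinase for GAS6, had the lowest mean level per length of the members in control cells, at 1.10 ± 0.410 TPM (SD, n = 3). It was at 1.93, 1.24 and 0.959 CPM in control cells, 2.66, 1.73 and 4.93 CPM in the NELFE knockdown and 6.15 and 4.12 CPM in the NELFB knockdown. NELFE replicate 2 lay below control replicate 1, and the other knockdown libraries lay above all control libraries. The log2 fold changes were 1.16 (standard error 0.39) and 1.89 (standard error 0.41), and the first was 0.66 without NELFE replicate 3. Its control libraries had their highest value in replicate 1, the opposite of most other members.

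In control cells, the order per length was CCN1, AJUBA, AMOTL2, AMOTL1, LATS2, CRIM1, F3, CCN2, ANKRD1 and AXL. AJUBA (50.8 ± 14.2 TPM, SD, n = 3), AMOTL2 and AMOTL1 did not differ beyond their spread, nor did F3 (9.51 ± 3.89 TPM, SD, n = 3) and CCN2. For ANKRD1 (4.06 ± 4.71 TPM, SD, n = 3) the spread was larger than the mean, and AXL lay within that spread. LATS2 was at 29.1 ± 2.41 TPM and CRIM1 at 18.5 ± 1.06 TPM (SD, n = 3).

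Over both knockdowns combined, the 5 knockdown libraries against the 3 control libraries, the median log2 fold change of the members was 0.97, against -0.0021 over all 16367 genes tested, and 0.83 without NELFE replicate 3. A gene outside the members was called when its adjusted p from edgeR was under 0.05. By this rule, 13.3% of the tested genes were called higher and 12.7% lower in the combined comparison, 7.92% of 16852 tested genes were called higher in the NELFE knockdown and 10.6% in the NELFB knockdown, and the lists below are read against these shares. All 5 knockdown libraries lay above all 3 control libraries for 5 of the 10 members and for 14.8% of all tested genes. Because the members were selected on these same libraries, their count is a description and nothing is read from it.

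The mean of the NELFB libraries was above that of the NELFE libraries for all 10 members and for 49.9% of all genes tested in the combined comparison. The log2 difference, NELFE less NELFB, had a median of -0.42 over the members and -0.01 over all genes tested, and it ranged from -1.19 for CCN2 and -1.07 for ANKRD1 to -0.04 for AMOTL1. These differences are also described without a test, since the values of all 3 groups were known when the members were chosen. The standard error was 1.11 for ANKRD1 and 0.27 for CCN2. Single libraries moved ANKRD1 from -2.93 without NELFE replicate 3 to -0.64 and -0.59 without NELFE replicates 1 and 2 and -0.49 without NELFB replicate 1, so that which member differed most depended on the libraries used. The median was -0.88 without NELFE replicate 3, and it was closer to 0 without some other libraries, at -0.23 without NELFE replicate 2 and -0.24 without NELFB replicate 1. The sign of AMOTL1, AJUBA and F3 depended on single libraries, since without NELFE replicate 2 they stood at 0.025, 0.10 and 0.02. AJUBA was also at 0.07 without NELFE replicate 1, and AJUBA and F3 at 0.03 and 0.17 without NELFB replicate 1.

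**Figure D2:**
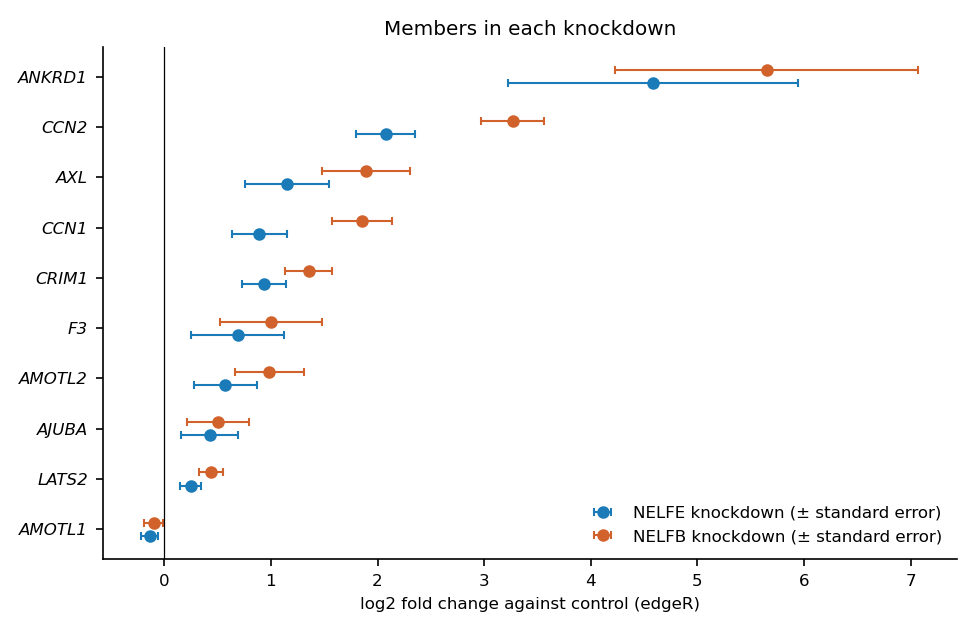
Log2 fold change against control (edgeR) for each member in the NELFE and NELFB knockdowns, with standard errors, ordered by the NELFB value. The NELFB value is the more positive for all 10 members, from -0.10 for AMOTL1 to 5.65 for ANKRD1, which also has the longest error bars.

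The members moved together from library to library. Over the 8 libraries, the Pearson correlation of log2 CPM had a median of 0.85 over the 45 pairs of members, and with the group means removed the median was 0.79. These libraries share groups and depth, so the coefficients are a description. They were not set against other pairs of genes, nor repeated without NELFE replicate 3. In the members' average that library stood at 1.02, against -0.06 and -0.52 for NELFE replicates 1 and 2. The correlation with the mean of the other members was 0.83 or more for every member but AMOTL1, for which it was -0.30. With group means removed, AMOTL1 was at 0.43 and AXL at 0.49, and the other 8 were at 0.86 or more.

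Of 12783 other genes, the 10 whose log2 CPM followed the members' average most closely had a Pearson r of 0.98 to 0.99 over the 8 libraries, where the median gene was at -0.04. They were SMAD3, a signal transducer of TGF-beta, LBH, a transcriptional cofactor, TPM1 (tropomyosin), OST4, a subunit of the oligosaccharyltransferase, SYNM (synemin), MYH9 (non-muscle myosin heavy chain), NT5C2, GLIPR1, the pseudogene FCF1P2 and the long noncoding RNA ENSG00000282057. TPM1 was at 243, 310 and 434 CPM in control cells, 437, 410 and 909 CPM in the NELFE knockdown and 909 and 786 CPM in the NELFB knockdown. Its level in NELFE replicate 3 was that of NELFB replicate 1 and above NELFB replicate 2. ENSG00000282057 lies on chromosome 1 from 85482281 to 85578250 on the minus strand, next to CCN1, which starts at 85580761 on the plus strand. Reads were counted without regard to strand, so a gene and any overlapping antisense transcript cannot be told apart.

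The mRNAs of the YAP effectors had log2 fold changes between -0.26 and 0.39 in the combined comparison. YAP1 was at 110, 127 and 136 CPM in control cells, 131, 126 and 136 CPM in the NELFE knockdown and 131 and 129 CPM in the NELFB knockdown. Knockdown and control libraries overlapped, and the combined comparison gave YAP1 a log2 value of 0.07 (adjusted p = 0.498, edgeR), which was -0.01 without control replicate 1. TEAD1 was at 219, 253 and 278 CPM in control cells, 342, 295 and 347 CPM in the NELFE knockdown and 339 and 310 CPM in the NELFB knockdown. All 5 knockdown libraries were above all control libraries, and TEAD1 rose by 0.39 on the log2 scale (adjusted p = 0.00837, edgeR). WWTR1, which encodes TAZ, rose by 0.23 (adjusted p = 0.0419, edgeR) and had no overlap between its 103 to 116 CPM in control cells and its 120 to 143 CPM in knockdown cells. The WWTR1 call was lost without any 1 of the control libraries, NELFE replicate 1 or either NELFB library, while that of TEAD1 held without each of the 8 libraries.

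TEAD2, TEAD3 and TEAD4 had log2 fold changes of -0.04, 0.23 and -0.26 and did not pass the test (adjusted p = 0.742, 0.159 and 0.111, edgeR), and the sign of TEAD2 changed without control replicate 1. Over 15 settings, TEAD3 ranged from 0.131 to 0.344 and passed under 1, and TEAD4 ranged from -0.363 to -0.17 and passed under 2. Of the 10 effector genes listed (YAP1, WWTR1, 4 TEAD and 4 VGLL genes), 8 were tested, 2 were higher and none lower (edgeR), with a median of 0.18. At an unadjusted p under 0.05, 1 gene was lower (TEAD4), and DESeq2 called 0 lower. The protein level, phosphorylation and location of YAP and TAZ were not measured.

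**Figure D3:**
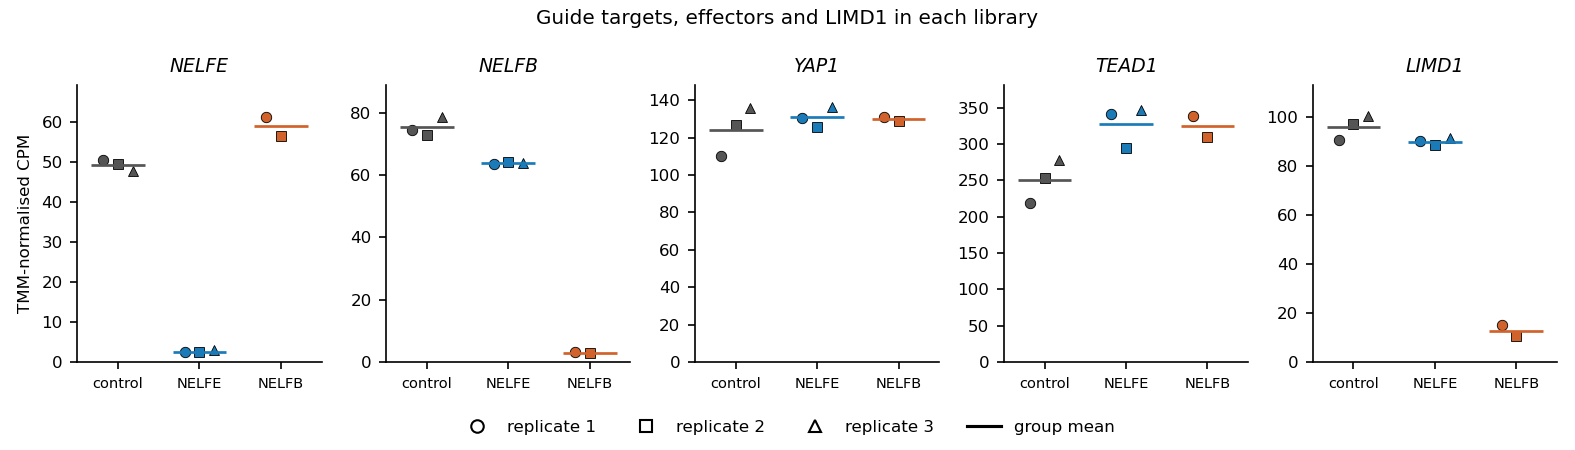
TMM-normalised CPM of both guide targets, YAP1, TEAD1 and LIMD1 in each library (symbols mark the replicate number, bars the group mean). NELFE and NELFB are far below control only in their own knockdown, YAP1 overlaps between groups, TEAD1 is above control in all 5 knockdown libraries, and LIMD1 is low in both NELFB libraries and in no NELFE library.

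In the kinase core of 11 genes, 1 was called higher and 1 lower, with a median of -0.03. SAV1, the scaffold of the MST kinases, rose by 0.23 on the log2 scale (adjusted p = 0.0306, edgeR). LATS1, the paralog of LATS2, was at 72.2, 86.2 and 82.9 CPM in control cells and at 61.8 to 67.2 CPM in the 5 knockdown libraries, all of them below all control libraries. LATS1 fell by 0.30 on the log2 scale (adjusted p = 0.0106, edgeR), while LATS2 was higher in the same libraries. The SAV1 call was lost without any 1 of the control libraries, NELFE replicate 1 or 2 or NELFB replicate 1, and the LATS1 call without control replicate 2.

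Among 11 upstream regulators, WWC3, of the KIBRA family that activates LATS, rose by 0.43 (adjusted p = 0.0155, edgeR, not passed without control replicate 1), the median was 0.07 and none was called lower in the combined comparison, with 0 lower at an unadjusted p under 0.05 and 0 by DESeq2. LIMD1 differed between the knockdowns. LIMD1, a LIM-domain protein related to AJUBA that binds LATS, was at 90.6, 96.9 and 100 CPM in control cells, 90.0, 88.4 and 91.3 CPM in the NELFE knockdown and 14.9 and 10.7 CPM in the NELFB knockdown. Both NELFB libraries were far below the other 6. LIMD1 fell by 2.90 on the log2 scale in the NELFB knockdown (adjusted p = 1.06e-06, edgeR), where 8.88% of tested genes were called lower. In the NELFE knockdown, where 7.04% were called lower, its log2 fold change was -0.10 (adjusted p = 0.559, edgeR), and the difference between the knockdowns was 2.81 (adjusted p = 1.26e-06, edgeR), in a test that 0.315% of all tested genes passed.

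LIMD1 holds a partial match to the NELFB guide RNA close to a start site, so both are shown, with the 11 matching bases next to the PAM in capitals. The site is on the minus strand at chr3:45594400-45594418 (GRCh38), followed by its PAM, in an exon of LIMD1 annotated as untranslated, 76 bases from an annotated start.
NELFB guide RNA: gccgagctGGAGGGCGCCG
LIMD1 site and PAM: atcggccgGGAGGGCGCCGagg

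A match of at least 11 bases beside an NGG PAM within 500 bases of a start was found for 0.258% of 16645 tested genes with an annotated start. Of 42 genes with 11 to 18 matching bases, 26 (61.9%) were called lower and 4 (9.52%) higher in the NELFB knockdown. The shares over all tested genes were 8.88% lower and 10.6% higher. In the NELFE knockdown, 1 of the 42 was called lower and 2 higher. The match length was chosen after these values were seen. ENSG00000282057, the gene next to CCN1, held an 11-base match 109 bases from a start and rose by 1.55 on the log2 scale (adjusted p = 0.0242, edgeR). Silencing through these matches was not tested. Among the members the longest match to the NELFB guide RNA was 8 bases, at CCN1, CRIM1 and F3, and 7.77% of genes held a match at least that long. For the NELFE guide RNA it was 6 bases, at LATS2. LIMD1 was lower in both NELFB libraries, and the members were chosen with their values in those libraries known. The part of LIMD1 in the levels of the members was not tested.

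The remaining 14 genes of a published YAP signature were listed whole, whatever their change. Of these, 12 were tested, 3 were called higher and none lower in the combined comparison (1 lower at an unadjusted p under 0.05, FOXF2, and 0 by DESeq2), and their median was 0.23. MYOF, which encodes the membrane repair protein myoferlin, was at 9.31, 8.97 and 14.99 CPM in control cells, 57.6, 32.3 and 139 CPM in the NELFE knockdown and 180 and 105 CPM in the NELFB knockdown. All knockdown libraries were above all control libraries, with the highest NELFE value again in replicate 3, and it rose by 3.21 on the log2 scale (adjusted p = 0.0151, edgeR). NUAK2, a kinase, rose by 1.04 (adjusted p = 0.0209, edgeR) and was above control in 5 of 5 knockdown libraries.

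GADD45A, a stress response gene, also rose by 1.04 (adjusted p = 0.0265, edgeR), although NELFE replicate 1, at 11.5 CPM, lay below control replicate 2, at 12.3 CPM. In the NELFE knockdown 2 genes of the signature were called higher, MYOF and NUAK2, and in the NELFB knockdown 6, which added GADD45A and, named here after their values were seen, ARHGEF17, TGFB2 and RBMS3. DESeq2 called 3 and 6. The NELFE calls of MYOF and NUAK2 held under 10 and 9 of 15 settings, and the NELFB calls of ARHGEF17 and RBMS3 under 12 and 10. ASAP1, the most abundant of the signature by CPM in control cells, had a log2 fold change of -0.003, and IGFBP3 and NT5E had at most 3 reads in any library. The combined calls of MYOF, NUAK2 and GADD45A were each lost without control replicate 1 or 3, and those of MYOF and NUAK2 also without control replicate 2. NUAK2 was called under 10 of 15 settings, and MYOF and GADD45A under 12 each.

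Of 12 closest paralogs of the members, 9 were tested, 0 were higher (1, AMOT, at an unadjusted p under 0.05, and 0 by DESeq2) and 1, LATS1, was lower, with a median of 0.01. CCN3 was at 0.602 to 1.11 CPM over all libraries, and TYRO3 and MERTK, the relatives of AXL, had log2 fold changes of -0.10 and 0.01 (adjusted p = 0.244 and 0.968, edgeR). Of the 6 partners of the receptors, 3 had too few reads to be tested. GAS6, the ligand of AXL, was at 9.91 to 16.2 CPM (log2 fold change -0.29, adjusted p = 0.146, edgeR), and F7, the ligand of tissue factor, had at most 1 read in any library. None of the other 3 was called (0 at an unadjusted p under 0.05, and 0 by DESeq2).

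Genes of the SRF and MRTF pathway, which responds to actin and shares targets with YAP, included some that varied as the members did. Of 13, 11 were tested and 2 were called higher, with a median of 0.29. TAGLN, an actin-binding protein of smooth muscle, was at 3.21, 3.51 and 5.53 CPM in control cells, 12.2, 11.3 and 37.3 CPM in the NELFE knockdown and 70.0 and 38.8 CPM in the NELFB knockdown, without overlap. TAGLN rose by 3.06 on the log2 scale (adjusted p = 0.0302, edgeR), and VCL, the focal adhesion protein vinculin, rose by 0.56 (adjusted p = 0.00688, edgeR). ACTA2, smooth muscle actin, was at 1.39 to 2.18 CPM in control cells, 2.58 to 3.72 CPM in the NELFE knockdown and 14.6 and 11.9 CPM in the NELFB knockdown, and its log2 difference between the knockdowns, NELFE less NELFB, was -1.998 (adjusted p = 0.00129, edgeR). The summed level of the 13 genes, of which ACTG1 was the most abundant, was 5853, 6876 and 8262 CPM in control replicates 1 to 3, 7024, 6570 and 10150 CPM in the NELFE knockdown and 10260 and 9342 CPM in the NELFB knockdown, so that replicate 3 was highest in both groups with 3 libraries. The number called ranged from 1 to 5 with single libraries left out. The call of TAGLN was lost without any 1 of the control libraries or without NELFE replicate 3, and that of VCL held without each of the 8.

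Of 8 AP-1 genes, 5 were called higher and none lower (0 lower at an unadjusted p under 0.05, and 0 by DESeq2), with a median of 0.80. FOS was at 4.05, 3.91 and 1.05 CPM in control cells, 33.9, 70.5 and 7.26 CPM in the NELFE knockdown and 99.3 and 123 CPM in the NELFB knockdown. Replicate 3 was here the lowest of both the control and the NELFE libraries, opposite to most members, and FOS rose by 4.47 on the log2 scale (adjusted p = 0.0308, edgeR). FOSL2, in contrast, was at 3.53, 2.80 and 5.84 CPM in control cells, 10.3, 7.04 and 25.6 CPM in the NELFE knockdown and 26.9 and 13.9 CPM in the NELFB knockdown. Replicate 3 was the highest of its control and of its NELFE libraries, as for most members, and FOSL2 rose by 2.04 (adjusted p = 0.0203, edgeR).

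FOSB, JUNB and JUND rose by 1.44, 0.78 and 0.42 on the log2 scale (adjusted p = 0.0201, 0.0151 and 0.0105, edgeR). In the NELFB knockdown 7 of the 8 AP-1 genes were called higher and in the NELFE knockdown 3, against 7 and 5 by DESeq2. The NELFE calls were those of FOS, FOSL2 and JUND, which held under 7, 9 and 7 of 15 settings. The combined calls fell from 5 to 2, 0 and 1 without control replicate 1, 2 and 3, and FOS also lost its call without NELFE replicate 2 or NELFB replicate 1.

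**Figure D4:**
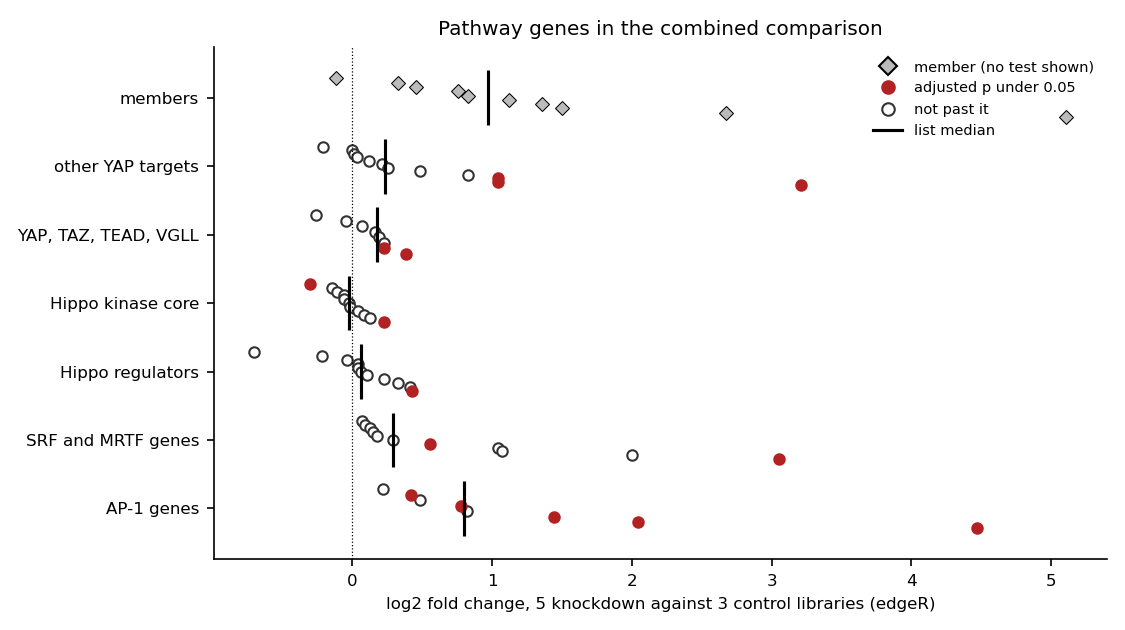
Log2 fold change of the 5 knockdown against the 3 control libraries (edgeR) for the tested genes of each list, with list medians (black bars) and the median of all tested genes (dotted line). The members have a median of 0.97 and the AP-1 genes of 0.80, whereas the kinase core lies around its median of -0.03.

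The haematopoietic markers were low, while some mesenchymal and some epithelial markers were present. Of 8 haematopoietic markers, 4 had at most 3 reads in every library, among them PTPRC and SPI1, and HBG1 had 0 reads, which allows up to 3 reads per library. Their summed level was 0.261 to 0.444 CPM in control, 0.791 to 1.58 CPM in NELFE and 3.20 and 1.11 CPM in NELFB libraries. CD34 had 3, 3 and 1 reads in control cells and 16, 6 and 28 reads in the NELFE knockdown. In the NELFB knockdown CD34 had 67 and 21 reads. It was called higher in the combined comparison (adjusted p = 0.0142, edgeR, not passed without control replicate 1 or 3). PTPRC and SPI1, defining markers of white blood cells, were thus at or near 0 in these cells, whereas CD34, a marker of blood progenitors and endothelium, reached 2.79 CPM.

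Of 6 epithelial markers, CDH1 had at most 4 reads and KRT19 had 0 reads in any library, which allows up to 3 reads per library, while KRT8 and KRT18 rose by 1.65 and 0.56 on the log2 scale (adjusted p = 0.00913 and 0.0174, edgeR). KRT8 lost its call without control replicate 3, and KRT18 without control replicate 1 or 2. The summed epithelial level was 31.6 to 34.0 CPM in control and 37.3 to 75.3 CPM in knockdown libraries, with KRT18 the most abundant. Of 7 mesenchymal markers, COL1A2, PDGFRB and THY1 had at most 16 reads in any library and were not tested in the combined comparison. COL3A1 rose by 5.45 and FN1 fell by 0.29 (adjusted p = 0.0118 and 0.0328, edgeR), and VIM, the most abundant, stood at 0.01 (adjusted p = 0.976, edgeR). The call of COL3A1 was lost without any 1 of the control libraries, and that of FN1 without control replicate 1 or 2, NELFE replicate 2 or NELFB replicate 2. The summed mesenchymal level was 419 to 527 CPM in control and 419 to 570 CPM in knockdown libraries. The part of these genes in the levels of the members was not tested, and in bulk RNA more expressing cells and more RNA per cell cannot be told apart.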

How the data were processed

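Polyadenylated RNA of 8 HAP1 CRISPRi libraries was sequenced by the authors as single-end reads of 65 bases, aligned with STAR 2.5.4a to GRCh38 and counted per gene of GENCODE 24 without strand, with FastQC 0.11.6 for quality control, per the labels and the methods. The deposited table holds these raw counts for 60725 genes. Symbols and exon lengths came from GENCODE 44, matched by Ensembl identifier for 97.35% of genes that had reads, or 99.875% of all counts. Totals were 22037423 to 24444185 counts per library, and limits from 0 reads cover counting error only.

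The test was edgeR's quasi-likelihood test with robust fitting (edgeR 4.0.16 in R 4.3.3), after filterByExpr and TMM, with p-values adjusted by Benjamini-Hochberg over all genes tested. The combined comparison set 5 knockdown against 3 control libraries, as in the study, which used DESeq2. Each knockdown and the difference between them came from 1 model with 3 groups. Alternatives were DESeq2 1.42.0, its size factors in edgeR, no filter, a minimum of 10 counts per library, a replicate block, leaving out single libraries, the 3-group model for the combined comparison and a prior count of 2.

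The members and lists were chosen with earlier results of these data known: other YAP targets, effectors, Hippo kinase core and regulators, paralogs, partners of the receptors, SRF and MRTF genes, AP-1 genes and cell type markers. Named were the members, the guide targets, YAP1, WWTR1, the TEAD genes, up to 5 called genes per direction in each list, and the 10 genes most correlated with the members (average log2 CPM of at least 1). Genes named outside this rule serve as examples and were chosen after their values were seen, as were the guide match lengths. Guide RNA sequences were taken from the oligonucleotides listed by the study, without the leading g, and promoters from RefSeq.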

Additional observations from a re-analysis of the deposited data

Results flagged for a closer look

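Outside the members, 4 genes of the lists differed between the NELFE and the NELFB knockdown in the test of that difference (edgeR, adjusted p under 0.05), given as NELFE less NELFB on the log2 scale. The guide targets differed in the direction of their guides, NELFE by -4.52 and NELFB by 4.44 (adjusted p = 6.09e-09 for each). LIMD1 differed by 2.81 (adjusted p = 1.26e-06) and was lower in both NELFB libraries than in all other 6. ACTA2 differed by -1.998 (adjusted p = 0.00129) and was higher in both NELFB libraries than in all others. LIMD1 and ACTA2 passed under all 15 settings tried, with differences from 2.60 to 3.07 for LIMD1 and from -2.13 to -1.84 for ACTA2. No group held more than 3 libraries, so none was searched for outlying libraries.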

How the results depend on the processing

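In the combined comparison, the log2 fold changes of the members moved by less than the replicate spread in 139 of 139 values under the alternatives run. That spread was itself wide for some members, so this is a weak criterion. ANKRD1 ranged from 4.54 to 6.67 and F3 from 0.57 to 1.20. Values of single knockdowns moved further, as given with the members. The combined median of the members was 0.82 to 1.18 with single libraries left out. For the other named genes, 404 values stayed on their side of the threshold, 102 lost the call and 10 gained it. None of these changed sign while called, but uncalled YAP1 and TEAD2 did, at -0.012 and 0.025 without control replicate 1. Of the genes given as examples, uncalled ASAP1 (-0.055 to 0.022), MERTK (-0.084 to 0.085) and VIM (-0.113 to 0.126) took both signs. ANKRD1 could not be tested at 10 counts in every library. DESeq2 called 5 other YAP targets and 5 SRF and MRTF genes higher, and 36 genes lower in the NELFE than the NELFB knockdown. Without a filter, higher calls were 1 effector, 0 kinase core, 2 regulator, 1 SRF and MRTF and 2 AP-1 genes, and the knockdowns differed in 66 genes upward and 95 downward. With at least 10 counts, 5 SRF and MRTF genes were higher and 8 genes lower in the difference. The cause of these shifts was not tested.

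Same-numbered control and NELFE libraries correlated in their deviations by 0.296, 0.050 and 0.481, and control and NELFB libraries by -0.021 and -0.022, and NELFE and NELFB libraries by 0.126 and 0.214. Not every pair passed 0.1, so the samples were taken to share only a number, although each control library correlated best with the NELFE library of its own number, a hint from the data. With the replicate block, 2408 genes were higher and 2355 lower in the NELFE knockdown, 2312 lower in the NELFB knockdown, and 69 higher and 126 lower in the difference, for which the members' median moved from -0.42 to -0.80. With it, 1 effector was lower, and 3 regulators and 1 paralog were higher.

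With single libraries left out, combined calls ranged from 1360 to 2526 higher and 1328 to 2599 lower, fewest without control replicate 2 and most without NELFE replicate 3. NELFE calls ranged from 561 to 1620 higher and 429 to 1503 lower, NELFB calls from 380 to 2218 higher and 223 to 2098 lower, and the difference from 24 to 47 higher and 2 to 34 lower. Higher calls ranged from 0 to 4 among other YAP targets, 1 to 3 among effectors, 0 to 1 in the kinase core, 0 to 2 among regulators, 0 to 1 among paralogs, 1 to 5 among SRF and MRTF genes and 0 to 5 among AP-1 genes. Lower calls ranged from 0 to 1 among other YAP targets, effectors, kinase core, regulators and paralogs. ANKRD1 and AXL had under 100 reads in each control library, which limits their precision.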
